A study of Homo sapiens with 11 samples.

Results

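Ikaros chromatin immunoprecipitation sequencing (ChIP-seq) peaks of untreated REH cells were compared with those of untreated 697 cells. Both are established human lines of B-cell acute lymphoblastic leukemia (B-ALL). REH is known for the ETV6-RUNX1 fusion. Each line gave 1 peak list. The REH library was made with an Ikaros antibody from Bethyl and the 697 library with an affinity-purified anti-Ikaros antibody, so that line and antibody cannot be told apart in any value below. The peaks compared were all 19610 peaks of the 697 list on chromosomes 1 to 22 and X, and the top-scored of the 83516 REH peaks on the same chromosomes, as many as the whole 697 list holds. This made 39262 peaks in all, of 300249 in the 5 lists of the study. The REH list was shortened because it was 4.26 times as long as the 697 list. The other lists came from JM1 cells, untreated or given 20 µM of the CK2 inhibitor CX-4945 for 1 day, and from Nalm6 cells given the same treatment. JM1 lists were made with the Bethyl antibody and the Nalm6 list with the affinity-purified one. With 1 list per line there is no spread between replicates and no test of any difference, and the 95% exact (Clopper-Pearson) intervals cover counting error only.

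Ikaros, the product of IKZF1, is a zinc finger protein that binds DNA and recruits chromatin remodelling complexes such as NuRD. It is needed for the development of lymphoid cells, and IKZF1 is a tumour suppressor gene often altered in B-ALL. The short sequence GGGAA is the core of its binding sites, with TGGGAA the form most often reported. ETV6-RUNX1 joins an ETS family repressor to RUNX1, a factor of early blood development.

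Promoters were commoner among the peaks that the REH and 697 lists shared than among those of 1 list alone. The promoters of the chromatin regulators KMT2A and SMARCA4 ranked high in both lists. Of 34 ribosomal protein genes, 18 (52.9%) had a peak near a start site in the REH list alone, against 19.6% of all protein-coding genes, and 697 peaks with no REH counterpart were weak, narrow and mostly in introns and between genes. To show the kind of DNA involved, the 200 bases at the centre of 5 peaks of the promoter class are printed, chosen from the highest-ranked named peaks of each kind whose central window holds no annotated UTR. The sequences are from GRCh38, on the plus strand, and capitals mark GGGAA or its reverse complement. The KMT2A window (chr11:118436631-118436830) and the NRF1 window (chr7:129611844-129612043) lay in peaks of both lists. The RFX2 window (chr19:6199548-6199747) lay in a peak of the REH list with no overlap in 697. The RPS2P32 window (chr7:23490469-23490668) and the CDKN2A window (chr9:21974877-21975076) lay in 697 peaks where the whole REH list had none.
KMT2A: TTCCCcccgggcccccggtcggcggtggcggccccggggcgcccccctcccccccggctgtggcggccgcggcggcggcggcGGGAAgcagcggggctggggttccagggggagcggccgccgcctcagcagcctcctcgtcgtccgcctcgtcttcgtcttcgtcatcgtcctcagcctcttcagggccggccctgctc
NRF1: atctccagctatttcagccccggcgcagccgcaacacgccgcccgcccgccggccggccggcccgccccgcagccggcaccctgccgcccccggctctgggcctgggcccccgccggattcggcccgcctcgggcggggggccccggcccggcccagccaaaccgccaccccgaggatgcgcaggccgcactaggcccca
RFX2: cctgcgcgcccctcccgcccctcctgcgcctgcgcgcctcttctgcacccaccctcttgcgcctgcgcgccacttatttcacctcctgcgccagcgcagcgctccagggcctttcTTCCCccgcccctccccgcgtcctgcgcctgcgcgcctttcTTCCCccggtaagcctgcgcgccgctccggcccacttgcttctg
RPS2P32: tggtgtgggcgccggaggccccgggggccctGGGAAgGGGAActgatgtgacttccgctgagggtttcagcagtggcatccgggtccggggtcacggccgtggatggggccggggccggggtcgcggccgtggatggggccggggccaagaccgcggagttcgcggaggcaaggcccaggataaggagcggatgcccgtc
CDKN2A: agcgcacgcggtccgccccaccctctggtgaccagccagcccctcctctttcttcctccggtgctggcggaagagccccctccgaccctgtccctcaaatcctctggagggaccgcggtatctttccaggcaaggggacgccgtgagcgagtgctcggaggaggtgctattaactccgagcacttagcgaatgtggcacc
Of these 5 windows, KMT2A, RFX2 and RPS2P32 held the core 2 times each, and NRF1 and CDKN2A held none. RPS2P32 was the single window of the 5 with the longer form TGGGAA. Their GC content was 79.5% for KMT2A, 81.5% for NRF1, 73% for RFX2, 73% for RPS2P32 and 64.5% for CDKN2A.

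The score that chose the REH peaks is a whole number given by the authors with each peak. The lowest score among the REH peaks compared was 31. Of the 1353 REH peaks with that score 510 were kept, the 1196 peaks at 32 were all inside, and the 1536 peaks at 30 were outside. Scores of the compared peaks had a median of 44 in REH and 22 in 697, but the lists have no common scale, so that ranks within each list are used here. Percentiles are mid-ranks, which count the peaks of lower score and 0.5 of those tied, and those of REH are within the compared list unless the whole file is named. The lowest compared REH score, 31, had percentile 1.30 in that list and 76.3 in the whole file. The compared REH peaks were also wider, with a median of 1710 bp against 626 bp in 697, and covered 64.6 Mb against 16.2 Mb. This difference in width, 2.73-fold in the medians, touches every overlap below.

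Of the compared REH peaks, 10041 (51.1%, interval 50.4 to 51.8%) overlapped a 697 peak by at least 1 bp. Of the 19610 697 peaks, 12840 (65.5%, interval 64.8 to 66.1%) overlapped a compared REH peak. The counts differ because 1353 REH peaks overlapped 2 or more 697 peaks. The extreme was a REH peak of 113405 bp over BAHCC1 on chromosome 17, which held 18 separate 697 peaks, followed by 17 under a peak at INTS1 and 15 under a peak at CACNA1H. Of the overlapping pairs, 93.0% had the 697 peak wholly inside the REH peak. The sequence covered by both lists came to 11.9 Mb, which was 18.4% of the compared REH sequence and 73.6% of the 697 sequence. When every peak was set to 400 bp around its centre, the shares were 27.8% of REH peaks and 27.9% of 697 peaks. With centres required within 250 bp of each other they were 21.5% in both lists, and with an overlap of 50% of both peaks 13.4% of REH peaks and 13.5% of 697 peaks. Against the whole REH list, 18059 of the 697 peaks (92.1%) overlapped a REH peak and 1551 did not.

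Promoters, the class assigned by the authors to peaks at a transcription start site (TSS), were the commonest class among shared peaks. They made up 49.5% of the shared REH peaks and 31.4% of the REH-specific peaks. In 697 they made up 50.4% of the shared peaks and 22.3% of the 697-specific peaks. Intergenic peaks showed the opposite order, with 9.13% of the shared and 23.3% of the REH-specific peaks, and 9.22% of the shared and 23.9% of the 697-specific peaks. Intron peaks came to 24.2% of shared and 30.5% of specific peaks in REH, and to 19.9% of shared and 33.5% of specific peaks in 697. Seen by class, 62.2% of REH promoter peaks and 81.1% of 697 promoter peaks were shared, against 29.1% of REH intergenic peaks and 42.3% of 697 intergenic peaks. Exon peaks and peaks at transcript ends lay between. The higher promoter share of shared peaks was present under 5 of the 6 other ways of defining the overlap for REH, and under all 6 for 697. The exception was the comparison of the 5000 top-scored peaks of each list, where 65.1% of shared and 66.2% of REH-specific peaks were promoters. The 1551 697 peaks absent from the whole REH list had the fewest promoters, 136 peaks or 8.77%, with 42.8% in introns and 39.9% between genes.

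**Figure D1:**
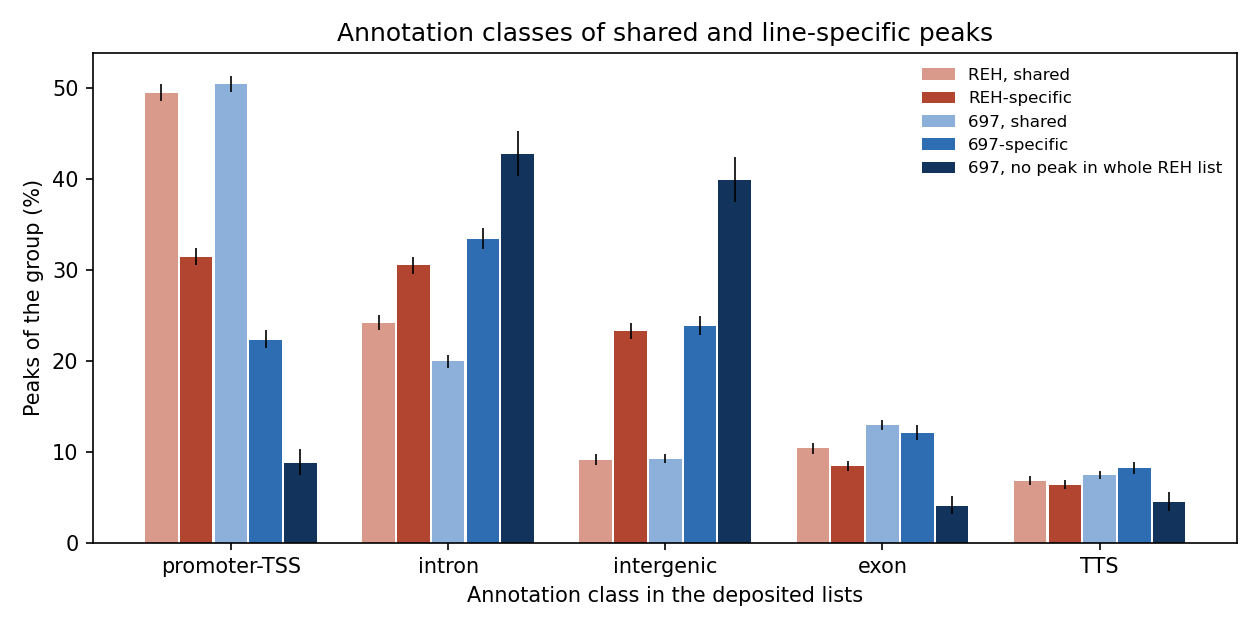
Share of peaks (%, vertical axis) in each annotation class of the deposited lists (horizontal axis) for shared REH, REH-specific, shared 697 and 697-specific peaks and for 697 peaks with no overlap in the whole REH list. Bars are shares with 95% exact intervals, and the promoter bars stand at 49.5%, 31.4%, 50.4%, 22.3% and 8.77% in that order.

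Sharing followed rank in both lists. With each list split by score into 5 bins of equal size, 30.8% of REH peaks were shared in the lowest bin, then 38.9%, 49.6% and 62.4%, and 73.8% in the highest bin. The shares of 697 peaks were 41.8% in the lowest bin, then 58.2%, 67.2% and 74.5%, and 85.6% in the highest. Median widths of the REH bins stayed between 1627 and 1820 bp, whereas the 697 bins widened with score, at 409, 506, 615, 744 and 881 bp. Among promoter peaks alone the shares ran between 43.9% and 74.1% over the REH bins and between 67.4% and 89.6% over the 697 bins. Against the whole REH list, 99.1% of the highest 697 bin and 76.8% of the lowest had an overlap. The median percentile within the whole file was 91.3 for shared and 85.3 for specific REH peaks, and 59.4 for shared and 34.1 for specific 697 peaks. Shared peaks were the wider ones, with medians of 2423 bp for shared and 1119 bp for specific REH peaks, and 737 bp for shared and 431 bp for specific 697 peaks. The 697 peaks absent from the whole REH list had a median width of 300 bp and a median percentile of 12.2.

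**Figure D2:**
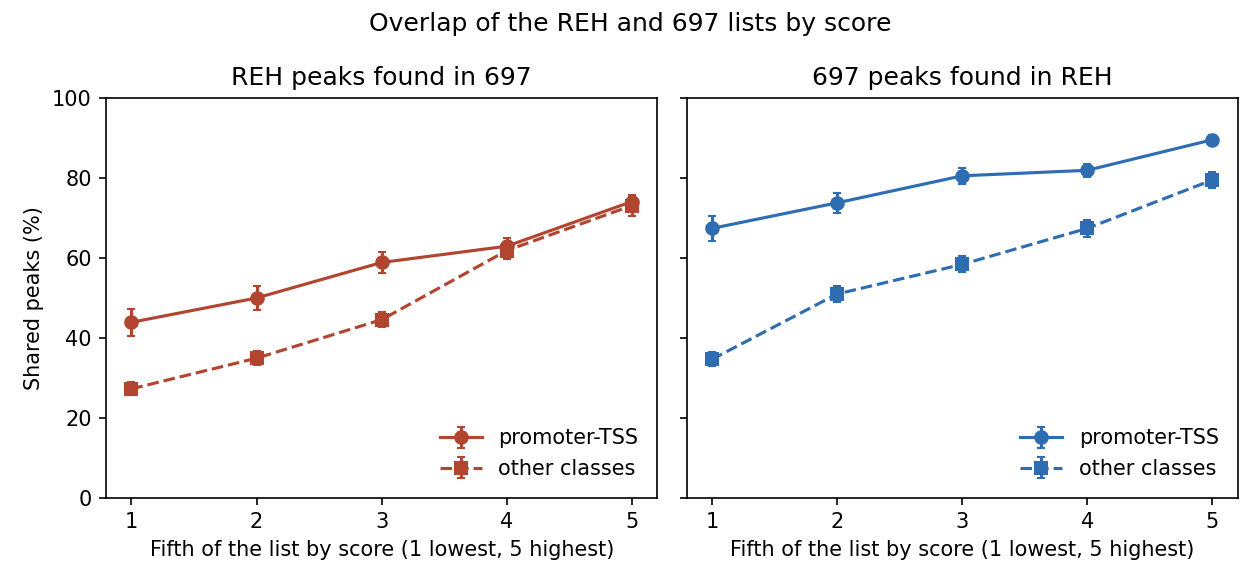
Share of peaks found in the other list (%, vertical axis) in 5 bins of equal size from the lowest to the highest scores (horizontal axis), for REH peaks on the left and 697 peaks on the right, with 95% exact intervals. Circles are peaks of the promoter class and squares all other classes, and both climb with score in both lists.

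Ranks in the lists were weakly related. Across the 12840 shared 697 peaks, each set against its best-scored REH partner, Spearman's rho between the percentiles in both lists was 0.26, and among the 4417 pairs of the promoter class in both lists it was 0.18. These are correlations across peaks of 1 library each, given as a description. In the top 10% of each list by score, 355 of 1947 REH peaks (18.2%) and 357 of 1914 697 peaks (18.7%) overlapped a top 10% peak of the other list.

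Shared promoter peaks were ranked by the lower of their percentiles in the lists, and by this rule KMT2A came first, which encodes a histone H3K4 methyltransferase that is itself a fusion partner in leukemia. It scored 341 in REH (chr11:118433527-118438792, percentile 99.97) and 90 in 697 (chr11:118436340-118437122, percentile 99.5). SMARCA4, the ATPase of SWI/SNF remodellers, followed with 157 in REH (percentile 99.3) and 129 in 697 (percentile 99.96). The next ranks went to DYRK1A, a protein kinase gene, with 163 in REH and 81 in 697, to FBXO31, which encodes a ubiquitin ligase subunit, with 162 in REH and 80 in 697, and to ZNF76, a zinc finger gene, with 164 in REH and 78 in 697. SOS1, the exchange factor that activates RAS, scored 141 in REH and 90 in 697. The list of 10 closed with DIS3L, RBFOX2, CPNE2 and NRF1. All 10 also had a peak in the whole untreated JM1, treated JM1 and Nalm6 lists. Of all shared REH promoter peaks, 85.4%, 99.4% and 97.5% did, in that order. Ranks parted elsewhere. LINC01058 scored 167 in REH (percentile 99.5) and 10 in 697 (percentile 0.61), and FRS2, which encodes an adaptor of FGF receptors, scored 138 in REH and 10 in 697. In the other direction FSTL1 scored 31 in REH (percentile 1.30, or 76.3 in the whole file) and 71 in 697 (percentile 98.0), and GALNT9 scored 32 in REH and 82 in 697. The GALNT9 peak was 23444 bp wide in REH and 2063 bp in 697.

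The REH-specific promoter peaks of high score included those at DARS, the aspartyl-tRNA synthetase gene, with a score of 440 (chr2:135985000-135986138), and RFX2, of the RFX factor family, with 322 (chr19:6198981-6200316). Their percentiles in the compared REH list were 99.98 for DARS and 99.96 for RFX2, and the 697 list had no peak over them. CYREN scored 235, ZFYVE16 232, TTC21B 225, CCT6A 215, SAV1 215 and DNASE1 211, and a promoter on chromosome 2 with no gene name scored 261. These sites were not REH's alone among the 5 lists. All 9 of them were in the treated JM1 list, and 8 in the untreated JM1 list, where DNASE1 was missing. In the Nalm6 list there were 7, with SAV1 and the unnamed promoter missing. Of all REH-specific promoter peaks, 92.3% were in the whole treated JM1 list, 51.7% in untreated JM1 and 78.3% in Nalm6. Among REH-specific peaks of other classes LINC01056 led with 565, above FAM111A with 271, AL354707.2 with 257 and TRARG1 with 256. NTN1, which encodes the guidance factor netrin 1, scored 192 and was in neither the untreated JM1 nor the Nalm6 list.

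Strong 697 peaks without any REH peak were few. The highest promoter scores were 57 at a site on chromosome 11 with no gene name, 55 at the pseudogene RPS2P32, 46 at TMEM74, and 44 each at CHDH, a choline dehydrogenase gene, VSTM2A and CDKN2A. Of the other classes, 62 was the top score, in an intron on chromosome 8, before GEM with 56, MIR3182 with 54, and WNT5A and CDON with 52 each. CDON encodes a co-receptor of hedgehog signalling, and the WNT5A peak (chr3:55474335-55474754) was in an exon of the gene of a secreted WNT ligand. Percentiles of these named sites ran between 87.5 and 96.4. Support in the other lists was uneven. CHDH had a peak in all 3 of them, with scores of 23 in untreated JM1, 39 in treated JM1 and 52 in Nalm6, whereas MIR3182 and CDKN2A had none in any.

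The CDKN2A peaks stood in the longest stretch with no REH peak among those with at least 3 peaks of 697. CDKN2A encodes the cell cycle inhibitors p16INK4a and p14ARF and is often deleted in B-ALL. Between chr9:20623654-23530038, a span of 2906 kb, the whole REH list had no peak and the 697 list had 6. These were at MIR31HG with a score of 22, MTAP with 18, CDKN2A-DT with 16, CDKN2A with 44 (chr9:21974706-21975249) and 28 (chr9:21994174-21995164), and DMRTA1 with 24. The untreated JM1 list had 1 peak in the span, at MIR31HG, the treated JM1 list had 11 and the Nalm6 list 4, and none of these was at CDKN2A. Of the stretches with no 697 peak, the one with the most compared REH peaks lay on the long arm of the same chromosome. At chr9:89606306-91361500, a span of 1755 kb, the 697 list had no peak, while the compared REH list had 18 that touched it and the whole REH list 105. The strongest was at the promoter of SYK, the kinase that relays signals from the pre-B cell receptor, with a score of 145 (chr9:90801262-90802396, percentile 98.9). That span held 32 peaks of untreated JM1, 98 of treated JM1 and 64 of Nalm6, and each of these lists had a peak at a SYK TSS, with scores of 30, 62 and 17 in that order. Next among stretches with no 697 peak were one on chromosome 6 around TTLL2 and TCP10 with 13 compared REH peaks and one on chromosome 16 around CIITA and CLEC16A with 12. CIITA encodes the master activator of MHC class II genes. A shorter one on chromosome 9, of 1090.5 kb, held 8 compared REH peaks, among them those of JAK2 and of CD274, the PD-L1 gene. DNA copy number was not analysed here.

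Chromosomes differed in how far the lists overlapped. Chromosome 16 had the highest share of 697 peaks found in REH, 87.6% (interval 85.5 to 89.6%), before chromosome 21 with 79.1% and chromosome 14 with 74.4%. The X chromosome had the lowest, 39.7% (interval 34.7 to 44.8%), below chromosome 13 with 52.2%, chromosome 18 with 52.9% and chromosome 3 with 55.4%. The number of compared peaks differed too. Chromosome 16 had 1293 REH and 1019 697 peaks, and X had 248 REH and 378 697 peaks. Chromosomes 16, 21 and X were also at the extremes among promoters, where 93.6% of the 697 promoter peaks of chromosome 16, 93.1% of those of chromosome 21 and 50.3% of those of X were shared. Against the whole REH list, X still had the largest share of 697 peaks with no overlap, 18.0%, followed by chromosome 3 with 15.9% and chromosome 13 with 15.1%, while chromosome 19 had 2.42%. A stretch of X from 100 to 110 Mb held 20 peaks of 697, of which 11 were absent from the whole REH list. In the other direction the shares of REH peaks found in 697 ran between 42.9% on chromosome 16 and 61.4% on chromosome 19.

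**Figure D3:**
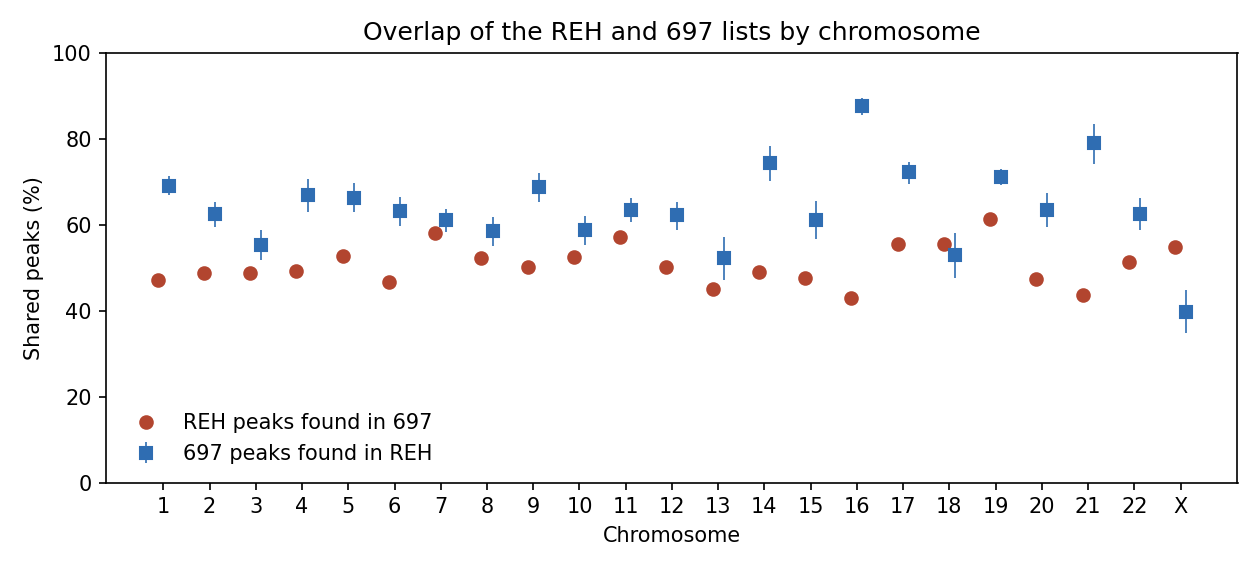
Share of REH peaks found in the 697 list (circles) and of 697 peaks found in the compared REH list (squares, with 95% exact intervals) on each chromosome (horizontal axis), in %. Chromosome 16 is at 87.6% and the X chromosome at 39.7% for 697 peaks, and REH peaks stay between 42.9% and 61.4%.

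The lists of the other lines are a readout that did not choose these peaks, and each was also shortened to the length of the 697 list. Shared peaks recurred there most. Of the shared REH peaks 69.3% were in untreated JM1, 80.4% in treated JM1 and 82.2% in Nalm6, and of the shared 697 peaks 62.7%, 78.5% and 78.1% in the same lists. The REH-specific peaks were found at 25.8% in untreated JM1, 39.5% in treated JM1 and 29.7% in Nalm6. The 697-specific peaks were found at 27.5% in untreated JM1, 31.9% in treated JM1 and 38.8% in Nalm6. Among promoters, 35.8% of REH-specific and 40.7% of 697-specific peaks were in untreated JM1, 63.5% of REH-specific and 50.6% of 697-specific peaks in treated JM1, and 41.3% of REH-specific and 60.7% of 697-specific peaks in Nalm6. Against the whole lists, the promoter shares were 51.7% of REH-specific and 60.1% of 697-specific peaks in untreated JM1. They were 92.3% and 91.7% in treated JM1, and 78.3% and 91.0% in Nalm6. The JM1 and Nalm6 lists differ in line as well as antibody, and the part of either was not tested. The treated lists differ from REH and 697 in treatment too. Over all classes, the whole lists of JM1 and Nalm6 also gave higher shares, up to 82.6% of REH-specific and 76.9% of 697-specific peaks in treated JM1. Counting any peak of these whole lists, 10.7% of REH-specific and 16.5% of 697-specific peaks were in none of the 3, and of the 697 peaks absent from the whole REH list 64.2% were in none.

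**Figure D4:**
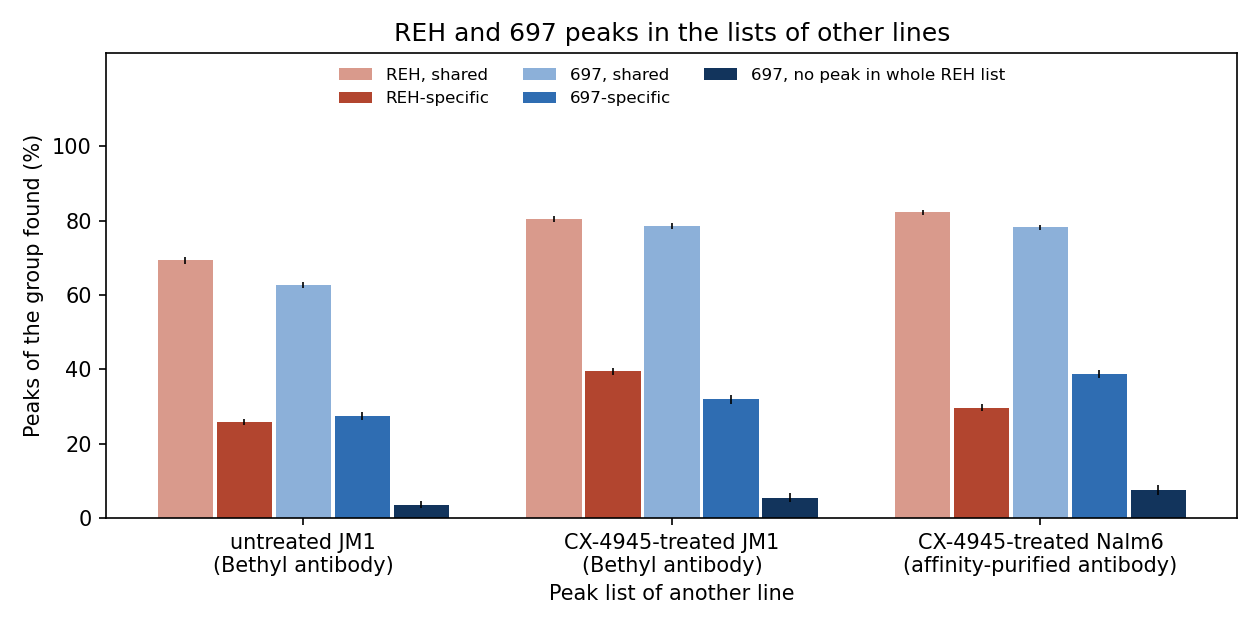
Share of peaks (%, vertical axis) that overlap a peak of the untreated JM1, treated JM1 and treated Nalm6 lists, each shortened to its top-scored peaks (horizontal axis), for shared REH, REH-specific, shared 697 and 697-specific peaks and 697 peaks with no overlap in the whole REH list. Error bars are 95% exact intervals, and the shared groups stand at 62.7 to 82.2%, the specific groups at 25.8 to 39.5% and the last group at 3.61 to 7.48%.

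A gene was counted when any part of a peak lay within 1000 bp of one of its TSSs. Of 19962 protein-coding genes, 3903 (19.6%) had such a peak in the compared REH list alone, 1348 (6.75%) in the 697 list alone, 8561 (42.9%) in both and 6150 (30.8%) in neither. Only 50 genes (0.25%) had a 697 peak and none in the whole REH list. With the peak centre required within 500 bp of a TSS, the counts were 3433 genes in REH alone, 3122 in 697 alone and 5722 in both. Under both rules together, 3080 genes (15.4%) were in REH alone and 1147 (5.75%) in 697 alone. Lists below are read against these background shares and have no test. A peak near a gene is not a measure of its expression.

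Of 5 Ikaros family genes, 4 (80%) were in both lists, against 42.9% of all genes. By both rules 4 were too, against 28.7%. By promoter-class peaks with the gene's name 2 of the 5 were in both, against 17.1% of all genes. IKZF1 itself had a promoter peak of score 92 in REH (chr7:50302341-50304983, percentile 91.9) and of score 79 in 697 (chr7:50302937-50304877, percentile 98.9). IKZF2, IKZF3 and IKZF4, which encode Helios, Aiolos and Eos, were in both lists, and IKZF5, which encodes Pegasus, was in REH alone with a score of 32, close to the lowest compared. Of 30 early B-lineage factors, 26 were in both lists, against 42.9% of all genes, and 18 (60%) by peak centres too, against 28.7%. Among the 26 were PAX5, EBF1 and FOXO1, which are needed for commitment to the B lineage. By peak centres PAX5 and EBF1 were no longer in both lists. Outside the 26, SPI1 and ID3 were in REH alone and RUNX3 in 697 alone, and none of these 3 calls was left when peak centres were used.

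Other transcription factor genes ranked differently in the lists. TCF3, which encodes the E proteins needed by early B cells, scored 58 in REH (percentile 71.4) and 117 in 697 (percentile 99.9). RUNX1 scored 129 in REH (percentile 98.1) and 43 in 697 (percentile 86.6), and ETV6 scored 67 in REH (percentile 79.7) and 21 in 697 (percentile 44.9). A peak near RUNX1 or ETV6 does not tell the fused from the intact allele. Of 13 genes known from leukemias with ETV6-RUNX1, 10 (76.9%) were in both lists, against 42.9% of all genes, and 6 (46.2%) by both rules, against 28.7%. Among the 10 were EPOR, the erythropoietin receptor gene, with 89 in REH and 41 in 697, and IGF2BP1, which encodes an RNA-binding protein, with 156 in REH and 30 in 697. None was in REH alone, by either rule. ARHGEF4 and CLIC5 were in 697 alone, and both had a peak in the whole REH list. By peak centres 6 of the 13 were in 697 alone, against 15.6% of all genes. By promoter-class peaks with the gene's name 6 were too, against 13.3%.

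Genes of the pre-B cell receptor, the surface complex that tests the first rearranged heavy chain, were in REH alone at 9 of 20, or 45%, against 19.6% of all genes. Among them were IGLL1 with a score of 83 and VPREB3 with 65, whose products belong to or resemble the surrogate light chain, CD79A with 121, which encodes a signalling chain of the receptor, SYK with 145, BLK with 47, BTK with 44, PTPN6 with 68 and BCL6 with 39. Another 7 of the 20 (35%) were in both lists, against 42.9% of all genes, and 6 (30%) by both rules, against 28.7%. Among the 7 were CD72 with 115 in REH and 34 in 697 and the kinase gene LYN with 81 in REH and 42 in 697. None was in 697 alone, and VPREB1, CD79B, CD22 and BLNK were in neither. The count in REH alone depends on the rule. The CD79A, VPREB3 and BLK peaks were of the transcript-end class, and with peak centres only IGLL1, SYK and BTK, 15% of the list against 15.4% of all genes, kept the call. Genes of V(D)J recombination and end joining had 4 of 11 (36.4%) in REH alone by both rules, against 15.4% of all genes. They were RAG2 with 37, DCLRE1C, the Artemis nuclease gene, with 83, XRCC5, the Ku80 gene, with 132, and NHEJ1 with 57. RAG1, the partner of RAG2 in the recombinase, scored 60 in REH and 12 in 697, and DNTT was in neither list.

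Cytosolic ribosomal protein genes had the highest share in REH alone of the 14 lists. Of 34 genes, 18 (52.9%) were in REH alone against 19.6% of all genes, 9 were in both, 1 in 697 alone and 6 in neither, and by both rules 15 (44.1%) were in REH alone against 15.4%. RPS14 scored 82, RPL15 70, RPS6 69, RPS2 64 and RPS18 61, and RPS16, with a 697 score of 15, was in 697 alone. RPS19 was the strongest member shared, with 416 in REH and 50 in 697. Support in other lists varied: RPS14 had a peak in all 3, RPS18 in both JM1 lists and not in Nalm6, and RPL9 in treated JM1 alone. G1 and replication genes had 17 of 28 (60.7%) in both lists, against 42.9% of all genes, and 32.1% by both rules, against 28.7%. In REH alone by both rules there were 9 (32.1%), against 15.4%. By promoter-class peaks with the gene's name 7 of the 28 were in REH alone and 5 in 697 alone. Of all genes, 14.6% and 13.3% were by that rule. The 9 were RB1 with 156 and CDC7, the kinase that starts replication origins, with 144, CDKN2C with 82, MYC with 73, MCM3 with 55, CDK2 with 54, CDC6 with 48, MCM2 with 45 and RBL1 with 41, while CDC25A was in 697 alone with 40. CCNE1, the cyclin E gene, was among the 17 in both lists, with 73 in REH and 83 in 697.

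Chromatin regulators had the highest share in both lists, with 23 of 25 (92%) in both against 42.9% of all genes, and 21 (84%) by both rules against 28.7%. They include NuRD subunit genes such as CHD4, with 95 in REH and 15 in 697, and HDAC1, with 116 in REH and 12 in 697, and the polycomb methyltransferase gene EZH2, with 120 in REH and 49 in 697. RBBP4 was in REH alone and SUZ12 in neither. BCL2 family genes were in both lists at 14 of 16 (87.5%), against 42.9% of all genes, and at 9 (56.2%) by both rules, against 28.7%. BCL2L1, whose product Bcl-xL the title of the study names, scored 40 in REH (chr20:31721613-31724125, percentile 40.5, or 86.0 in the whole file) and 19 in 697 (chr20:31722793-31723828, percentile 37.7). BCL2 itself scored 144 in REH (percentile 98.9) and 56 in 697 (percentile 94.5), and BAK1 was in 697 alone with 14. Cytokine receptor and JAK-STAT genes were in both lists at 17 of 22 (77.3%), against 42.9% of all genes, and at 13 (59.1%) by both rules, against 28.7%. JAK2 was in REH alone with 97, CSF2RB in 697 alone with 13, and STAT5B scored 61 in REH and 103 in 697. IL7R, CRLF2 and IL2RG had no TSS-window peak in either list.

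Of 7 genes of CK2 and protein phosphatase 1 (PP1), 5 (71.4%) were in both lists, against 42.9% of all genes. By both rules 4 (57.1%) were, against 28.7%. CSNK2B, the regulatory CK2 subunit gene, was in REH alone with 48. CSNK2A1, a catalytic subunit gene, scored 65 in REH and 17 in 697, and CSNK2A2 scored 127 in REH and 62 in 697. Genes of glucose uptake and glycolysis had 13 of 18 (72.2%) in both, against 42.9% of all genes, and 11 (61.1%) by both rules, against 28.7%. Another 5 (27.8%) were in REH alone, against 19.6% of all genes, and 4 (22.2%) by both rules, against 15.4%. These 5 were SLC2A3, PFKM, PGK1, LDHA and TXNIP, with PFKM highest at 86. Adhesion and homing genes had 10 of 18 (55.6%) in both, against 42.9% of all genes, and 7 (38.9%) by both rules, against 28.7%. VCL and S1PR1 were in REH alone and JAM3 in 697 alone. The markers of lineages split unevenly too. Of 8 B-lineage markers, PAX5 and EBF1 were in both lists, 3 were in REH alone and 3 in neither. T cell markers had 3 of 8 in both, CD7, CD8A and LCK, and the CD3 genes in neither. Myeloid markers had 3 of 8 in REH alone, MPO, CSF3R and SPI1, and 2 in both. Of 8 neuronal markers, NEUROD1 with 54, SYT1 with 18 and SNAP25 with 17 were in 697 alone, and no neuronal marker was in REH alone. Of all genes, 19.6% were in REH alone, 6.75% in 697 alone and 42.9% in both. By both rules no B-lineage, T cell or myeloid marker was in both lists, and 1 neuronal marker was, against 28.7% of all genes. By both rules 1 B-lineage and 1 myeloid marker were in REH alone and 3 neuronal markers in 697 alone, against 15.4% and 5.75%. Every gene of these lists that was in 697 alone had a peak in the whole REH list.

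**Figure D5:**
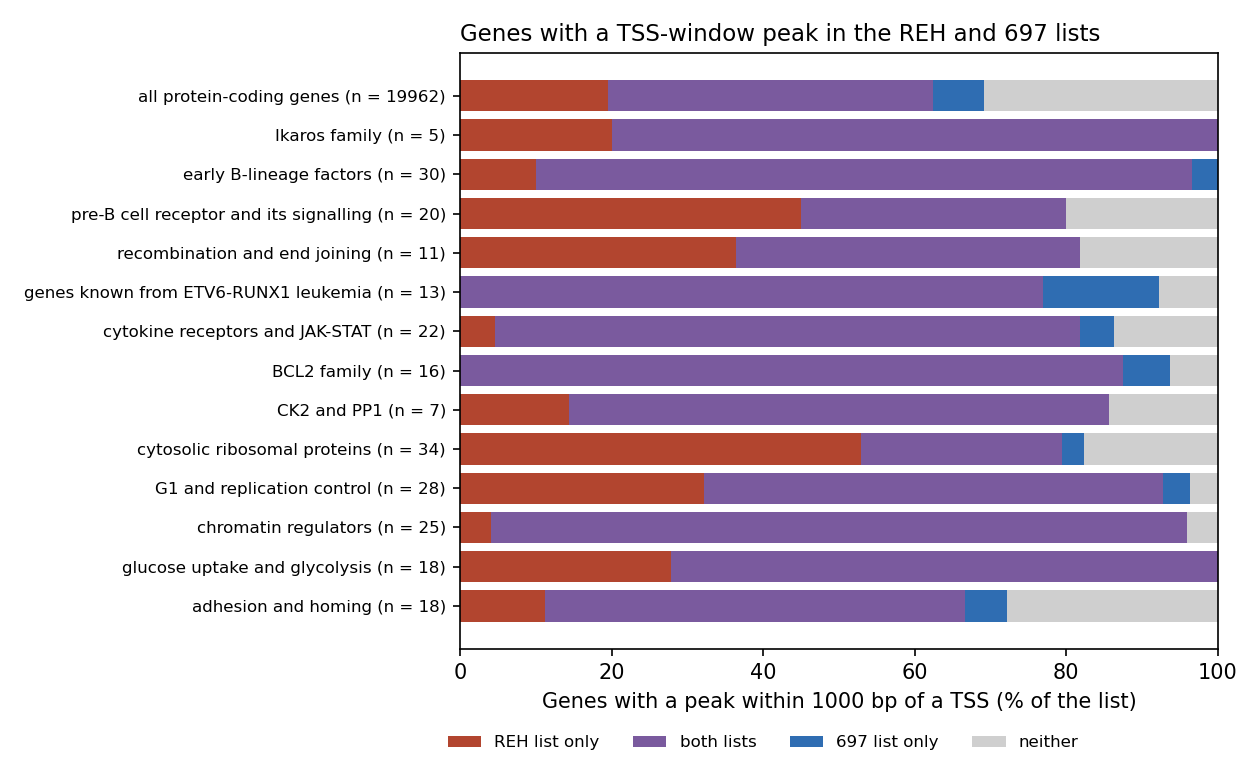
Share of the genes of each list (%, horizontal axis) with a peak within 1000 bp of a TSS in the REH list only, in both lists, in the 697 list only or in neither, with all 19962 protein-coding genes at the top. REH only is widest for cytosolic ribosomal proteins (52.9%) and both is widest for chromatin regulators (92%), against 19.6% and 42.9% of all genes.

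Base composition divided the groups. In 200 bp windows around the peak centre, the median GC content was 67% in shared and 60.5% in specific REH peaks, and 71.5% in shared and 65.5% in specific 697 peaks. The 697 peaks absent from the whole REH list had 50.5%. Windows at the TSSs of all protein-coding genes had 66.5% and windows placed every 50 kb along the genome 40%. Among promoters the medians were 70% in shared and 63.5% in specific REH peaks. The ratio of observed to expected CpG had medians of 0.71 in shared and 0.44 in specific REH peaks, 0.79 in shared and 0.50 in specific 697 peaks, and 0.26 in the 697 peaks absent from REH. The GC-box letters GGGCGG, known as a site of SP1, were in 44.8% of shared and 26.1% of specific REH windows, and in 55.6% of shared and 34.5% of specific 697 windows, against 53.6% of TSS windows and 2.81% of evenly placed ones.

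The longer form of the Ikaros site was less frequent in shared than in specific peaks of both lists. TGGGAA, searched on both strands, was in 14.2% of shared and 19.2% of specific REH windows, and in 11.2% of shared and 14.7% of specific 697 windows. It was in 20.2% of the 697 peaks absent from the whole REH list. The background shares were 13.5% of TSS windows and 15.6% of evenly placed windows, so that shared peaks of 697 were below both. Median GC content differed as well, at 71.5% in shared 697, 66.5% in TSS and 40% in evenly placed windows. The part of base composition in the TGGGAA shares was not tested. The core GGGAA alone, which contains no further letter, was in 50.7% of shared and 52.8% of specific REH windows and in 46.3% of shared and 44.9% of specific 697 windows, against 47.3% of TSS windows and 37.4% of evenly placed ones. The lists give no summits, and a window at the centre of a wide peak may lie away from the site that was bound. Other letters differed between the lists at promoters. CCGGAAG, an ETS site, was in 5.81% of shared and 11.3% of specific REH promoter windows (interval 10.1 to 12.4%), and in 5.87% of shared and 4.3% of specific 697 promoter windows (interval 3.33 to 5.44%), with 11.2% of TSS windows as background. CCAAT, the site of NFY, was in 18.9% of REH-specific and 10.8% of 697-specific promoter windows, against 25.1% of TSS windows. RUNX letters TGTGGTT, of the family of a fusion partner in REH, were less frequent than in evenly placed windows. TGTGGTT was in 2.43% of REH-specific and 1.88% of 697-specific windows against 3.66%. The evenly placed windows had a lower median GC content, 40% against 60.5% in REH-specific and 65.5% in 697-specific windows. The part of base composition in this difference was not tested.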

How the data were processed

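The study holds 11 ChIP-seq libraries of B-ALL lines, 6 with an Ikaros antibody and 5 inputs, and REH and 697 have 1 peak list each. The labels' protocols name BBDuk for trimming, and the submitters' processing notes name GRCh38, Bowtie2 2.3.4.3, MACS2 2.1.1 and HOMER 4.10. How peaks were called, against which control, and what the score measures is not stated in the sources used here, and read depth is unknown. Each peak has a position, class, gene name and whole-number score, as deposited by the authors. Of the promoter-class peaks with a coding transcript, 99.2% in REH and 99.1% in 697 lay within 1000 bp of its TSS in GENCODE 44, whose TSSs were used with GRCh38 sequence.

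Peaks were matched by an overlap of 1 bp and ranked by mid-rank percentile in Python 3.11.15 (pandas 2.3.3, scipy 1.17.1), and the matching was checked on simulated intervals. Peaks outside chromosomes 1 to 22 and X, 47 in REH and 42 in 697, were left out. Members and gene lists were chosen with earlier results of these data known. Genes named are list members found in 1 list alone, IKZF1, BCL2L1, the partners of the REH fusion, TCF3, further list members as examples, and the peaks ranking highest as shared, line-specific or discordant in rank. Alternatives were other overlap rules, list lengths, gene rules and motif windows. Results on some genes, and 1 of the gene lists, are not reported here.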

Additional observations from a re-analysis of the deposited data

How the results depend on the processing

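No paired analysis was possible because each line has 1 list. Shares of shared peaks, for REH and then 697, were 13.4% and 13.5% with a reciprocal overlap of 50%, 21.5% and 21.5% with centres within 250 bp, 27.8% and 27.9% with peaks set to 400 bp, 17.5% and 92.1% with the whole REH list, 34.9% and 35.6% for the top 5000 peaks of each list, and 64.5% for 697 without tied REH peaks at the lowest score. Promoter shares, in the order shared REH, REH-specific, shared 697 and 697-specific, were 62.5%, 37.3%, 62.8% and 37.3% with the reciprocal overlap, 61.4%, 35.0%, 61.4% and 35.1% with centres, 60.4%, 33.1%, 61.0% and 32.9% at 400 bp, 41.7%, 11.6%, 43.5% and 8.77% with the whole REH list, and 65.1%, 66.2%, 68.9% and 53.4% for the top 5000. Median percentiles were 62.9 for shared and 37.4 for specific REH peaks within the compared list, and with the reciprocal overlap 94.0 and 87.3 in REH and 71.9 and 44.9 in 697. Against whole lists, REH-specific peaks were found at 40.8% in untreated JM1, 82.6% in treated JM1 and 70.4% in Nalm6, and 697-specific peaks at 44.2%, 76.9% and 74.4%.

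With promoter-class peaks that carry the gene's name, 3414 genes were in both lists, 2660 in 697 alone and 10969 in neither, and with peak centres 3122 were in 697 alone. Summed over the 14 gene lists, the name rule gave 75 in both, 42 in 697 alone and 84 in neither, and the centre rule 37 in 697 alone and 47 in neither, against 164, 9 and 25 by the TSS rule. TGGGAA in 400 bp windows was in 26.1% of shared and 34.6% of specific REH peaks, 21.1% of shared and 27.4% of specific 697 peaks, 33.7% of 697 peaks absent from REH, 26.5% of TSS and 29.2% of evenly placed windows. GGGAA in 200 bp was in 50.7%, 52.8%, 46.3%, 44.9%, 44.4%, 47.3% and 37.4% in that order. The centre rule for the gene lists and the GGGAA search were chosen after seeing the data. Shared peaks had the higher promoter share in every setting except REH in the top 5000. Of 228 values for single gene lists and other motifs, 170 moved. Whether any of them changed direction was not checked, and the cause was not tested.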
